A study of Mus musculus and Homo sapiens
Mus musculus with 12 samples.

Results

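D2 striatal medium spiny neurons were taken as the brain nuclei selected on 7 genes: at least 4 unique fragment identifiers (UFIs, the molecule counts of this assay) of Rgs9 per 10000 UFIs of the nucleus, at least 3 UFIs on Drd2, Adora2a and Penk together, and at least 2 times as many UFIs on those 3 genes as on Drd1, Tac1 and Eya1. The rule gave 544 D2 nuclei of 11198 brain nuclei, or 4.86% (95% exact Clopper-Pearson interval 4.47 to 5.27, counting error only). With the sums of the 3 genes exchanged it gave 341 D1 nuclei, and 461 further nuclei passed the Rgs9 minimum in neither class and are called undecided here.

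The libraries are single-nucleus total RNA libraries (snHH-seq, a droplet method with random primers) of mouse brain, which the study's methods describe as tissue of young adult wild-type C57BL/6J males. They fall into 4 groups: frozen brain without preindex (2 libraries), frozen brain with preindex (2), fresh brain without preindex (2) and fresh brain with preindex (1), where the preindex is a cell barcode carried by the reverse transcription primer. A further 5 samples of human and mouse cell lines were not used. Groups follow the sample titles, since the primer named in the treatment label is the opposite one in 4 of the 7 libraries. The deposited cell barcodes go with the titles: they are 40 bases long where the title names a preindex (3 libraries) and 30 bases long where it does not (4). No label states whether libraries came from separate animals, so a p-value here measures the spread between libraries, which may be technical.

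The striatum holds GABAergic projection neurons of 2 main kinds. D2 neurons carry the dopamine receptor D2 and an adenosine receptor encoded by Adora2a, make enkephalin and project to the globus pallidus in the indirect pathway. D1 neurons carry the dopamine receptor D1, make dynorphin and substance P and project to the output nuclei of the basal ganglia in the direct pathway. Dopamine acts on them in opposite ways through G proteins, adenylyl cyclase and cyclic AMP, and Rgs9, the gene of a striatal regulator of G protein signalling, is high in both.

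The 544 D2 nuclei held 7627659 UFIs, with a median of 11640 UFIs and 3091 genes per nucleus. Frozen non-preindexed replicates 1 and 2 had 32 and 29 D2 nuclei, and frozen preindexed replicates 1 and 2 had 138 and 116. Fresh non-preindexed replicates 1 and 2 had 32 and 43, and the fresh preindexed library had 154. The summed depth of D2 nuclei ran from 363120 UFIs in frozen non-preindexed replicate 1 to 1801658 in frozen preindexed replicate 2, so values of the first rest on the fewest molecules. The median D2 nucleus of the fresh non-preindexed replicates was the deepest, at 19318 and 27341 UFIs, and that of the fresh preindexed library the shallowest, at 8700.5. Across the 7 libraries 32 barcodes occurred in more than 1 library, and 3 D2 nuclei carried such a barcode.

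The values of the 7 genes chose the members and are given as a description with no test. Drd2 in D2 nuclei ran from 9.28 UFIs per 10000 (frozen non-preindexed replicate 1) to 14.2 (fresh non-preindexed replicate 1), with 12.4 over all D2 nuclei, against 0.016 in D1 nuclei and 0.151 in nuclei below the Rgs9 minimum. Adora2a was at 2.48 UFIs per 10000 over all D2 nuclei, with libraries between 1.89 and 3.12, against 0.0144 in D1 nuclei. Penk, which encodes the enkephalin precursor, was at 4.93, with libraries between 3.10 and 5.6, against 0.0738 in D1 nuclei. Rgs9 did not tell the classes apart, at 13.4 UFIs per 10000 in D2 and 13.1 in D1 nuclei. Drd1 (0.0393 in D2 against 1.67 in D1 nuclei), Tac1 (0.0367 against 0.815) and Eya1 (0.104 against 0.422) were low in D2 nuclei, and Eya1 was also seen below the Rgs9 minimum at 0.162. Every library showed the same order for Drd2, Adora2a and Penk, as the rule requires of the nuclei it keeps.

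**Figure D1:**
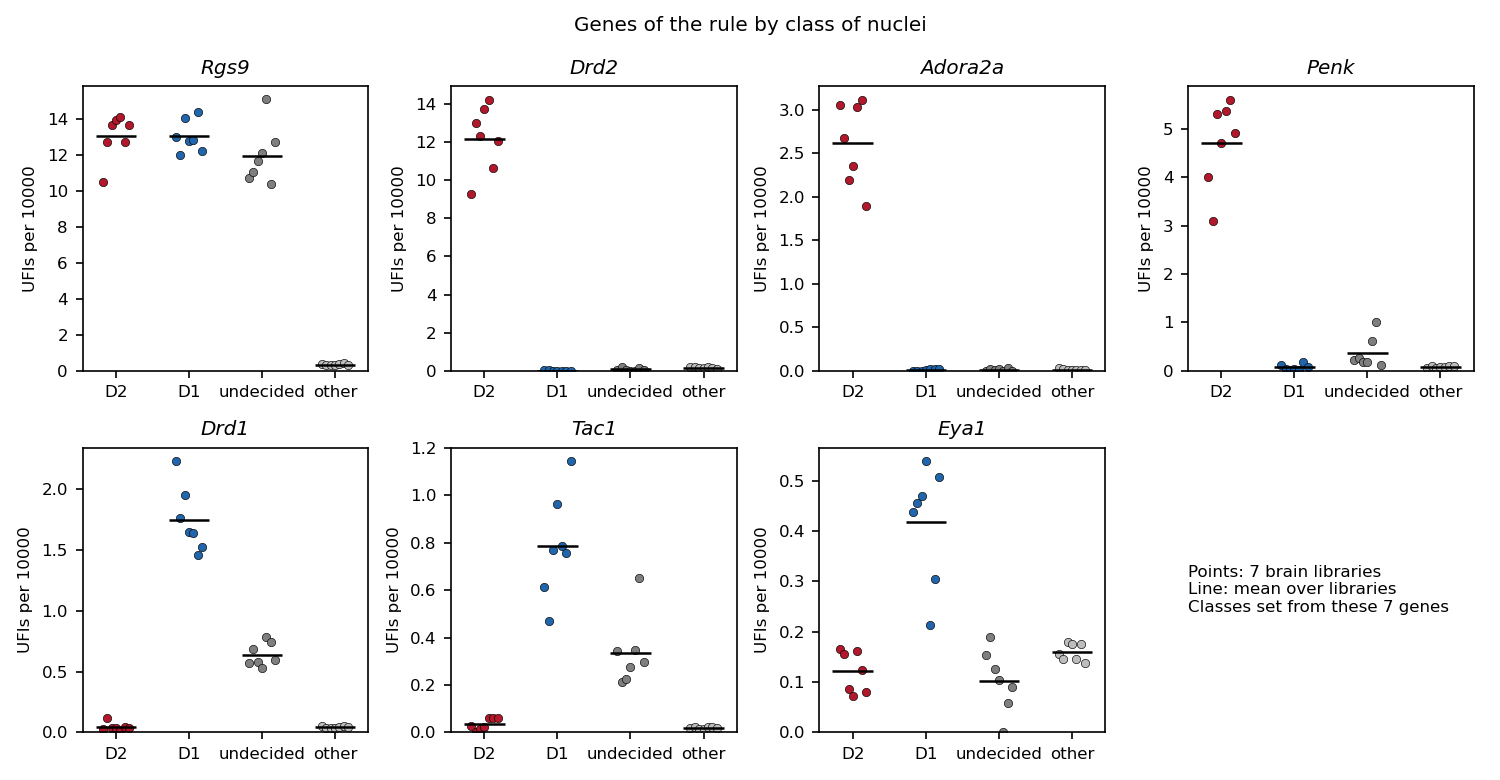
UFIs per 10000 of the 7 genes of the rule (vertical axes) in D2, D1 and undecided nuclei and in nuclei below the Rgs9 minimum (other), with a point for each of the 7 libraries and a line at their mean. D2 nuclei of every library lie above the other classes for Drd2 (9.28 to 14.2), Adora2a and Penk, and D2 and D1 nuclei overlap for Rgs9.

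Most D2 nuclei were called on several genes at once. All of Drd2, Adora2a and Penk were seen in 460 D2 nuclei, 2 of them in 70 and 1 of them in 14. Drd2 itself was not seen in 10 D2 nuclei, and 465 had no UFI on Drd1, Tac1 or Eya1. The 3 defining genes together gave 3 to 144 UFIs per D2 nucleus with a median of 22.5, so the minimum of 3 lies far below the typical member: 6 nuclei lay at exactly 3 UFIs inside the rule and 9 at exactly 2 outside it. Around the Rgs9 minimum, 22 members lay between 4 and 5 UFIs per 10000, and 18 nuclei with passing D2 sums lay between 3 and 4. In all 383 nuclei passed the D2 sums but not the Rgs9 minimum. Around the ratio of 2, 3 members lay between 2 and 3, and 17 nuclei between 1 and 2.

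D2 nuclei were also described by genes that the rule did not use, in lists chosen with earlier results of these data known. The 26 medium spiny neuron genes listed (Ppp1r1b, Bcl11b, Pde10a, Adcy5 and others) summed to 200 UFIs per 10000 in D2 and 181 in D1 nuclei. They summed to 166.6 to 208 in the D2 nuclei of single libraries and to 45.1 in all nuclei below the Rgs9 minimum. High in both classes, they do not tell D2 from D1 nuclei. Markers of other cells were not absent from D2 nuclei. The subcortical excitatory list was the highest, at 2.78 UFIs per 10000 (most abundant Ntng1, 1.58) against 6.29 in all other nuclei. The astrocyte list stood at 2.58, of which Gli3 gave 2.07, above the 0.792 of all other nuclei, and the list of oligodendrocyte precursors at 0.374 (Vcan, 0.326) against 0.333. The interneuron list stood at 1.44 UFIs per 10000 (nearly all of it Adarb2 at 1.41, with Vip and Chat at 0), the oligodendrocyte list at 1.56 (most abundant Mbp, 0.941), the cortical excitatory list at 0.410 and the microglia list at 0.173 (Dock2, 0.0498). The endothelial list stood at 0.0905 (most abundant Flt1, Cldn5 at 0), the kidney list at 0.0852 (Pkhd1) and the liver list at 0.00787 (Cps1, Alb at 0). Over 7 lists of other brain cells summed, 66 of the 544 D2 nuclei exceeded 10 UFIs per 10000 and so did 101 of the 341 D1 nuclei; no doublet caller was run, and the part of doublets in the results was not tested.

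The share of D2 nuclei was compared between libraries. D2 nuclei made up 4.57% and 3.62% of nuclei in frozen non-preindexed replicates 1 and 2, 6% and 5.81% in the frozen preindexed replicates, 3.20% and 3.31% in the fresh non-preindexed replicates and 4.97% in the fresh preindexed library. The 3 preindexed libraries were all above the 4 others, at 5.59% ± 0.549 (SD, n = 3) against 3.68% ± 0.624 (n = 4), within frozen and within fresh brain alike. A two-sided exact permutation test over the 35 arrangements of the libraries gave p = 0.0571, where the smallest possible p was 0.0286. These shares are of all nuclei, whose make-up differed between libraries. The cerebellar granule cell genes Fat2, Cbln3 and Gabra6 were seen in 18.7% to 42.8% of the other nuclei without preindex. With preindex they were seen in 0.370% to 1.28%. The kidney list was high only in the other nuclei of the frozen preindexed replicates (7.00 and 6.16 UFIs per 10000). The part of this make-up in the shares was not tested. Frozen libraries (5.00% ± 1.11, n = 4) and fresh libraries (3.83% ± 0.991, n = 3) overlapped (p = 0.2, exact permutation test). The same direction was seen for all nuclei past the Rgs9 minimum, at 13.5% ± 0.835 with and 9.69% ± 2.39 without preindex (p = 0.0571, exact permutation test, n = 3 and 4), and D2 nuclei made up 41.2% ± 1.58 and 38.9% ± 6.72 of those (p = 0.771).

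The ratio of D2 to D1 nuclei varied with the library and with depth. There were 1.88 and 0.707 D2 nuclei per D1 nucleus in the frozen non-preindexed replicates, 2.03 and 1.43 in the frozen preindexed, 0.914 and 1.13 in the fresh non-preindexed and 2.52 in the fresh preindexed library. The log2 ratio averaged 0.96 ± 0.41 with preindex (n = 3) and 0.12 ± 0.60 without (n = 4), with p = 0.114 by the exact permutation test, and the groups overlapped. With undecided nuclei counted as D1, an alternative added after seeing the data, the ratio was below 1 in all 7 libraries (0.414 to 0.811, and 544 to 802 or 0.678 over all), and the log2 ratio was -0.51 ± 0.09 with and -0.66 ± 0.42 without preindex (p = 0.771, exact permutation test, n = 3 and 4), so the ratios above hold only for the D1 nuclei that the rule could call. Undecided nuclei were 45.0% of those past the Rgs9 minimum in the fresh preindexed library and 16.2% and 15.6% in the fresh non-preindexed replicates. In frozen brain the groups overlapped, at 37.0% and 28.6% in the preindexed and 36.4% and 29.3% in the non-preindexed replicates. The calls depended on depth. When each nucleus was first thinned to 5000 UFIs, 520 nuclei were D2, 99 were D1 and 907 were undecided. At that depth 96.9% of D2 nuclei still had a UFI of Drd2, while 61.8% of D1 nuclei had one of Drd1. At the deposited depth D1 nuclei had a median of 15055 UFIs, D2 nuclei 11640 and undecided nuclei 9729.

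**Figure D2:**
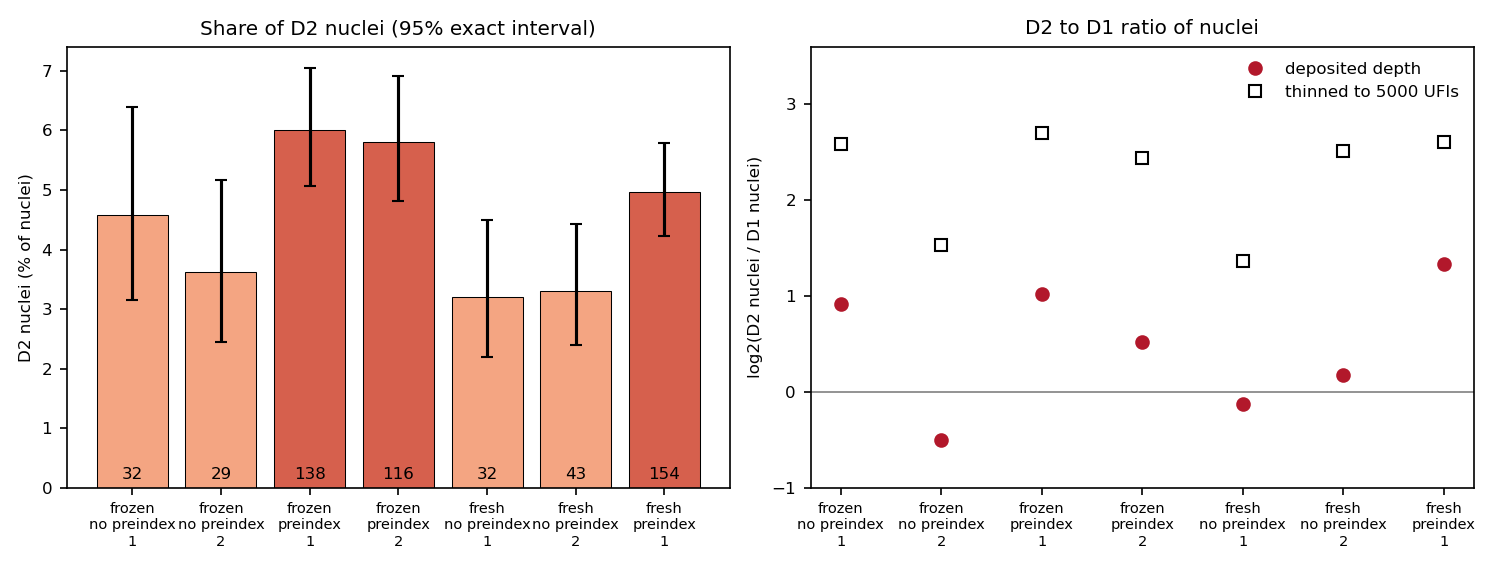
Left, D2 nuclei as a percent of the nuclei of each of the 7 libraries with exact 95% intervals; the number of D2 nuclei stands at the foot of each bar and darker bars are preindexed. Right, log2 of the number of D2 nuclei per D1 nucleus at the deposited depth (points) and after thinning to 5000 UFIs (squares), which raised the ratio in all 7 libraries.

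Undecided nuclei were set beside both classes on genes outside the rule. Of 461 undecided nuclei, 436 had under 3 UFIs on both sums. In those 436, a list of 10 measured genes known as D2-enriched stood at 4.53 UFIs per 10000, near the 3.57 of D1 nuclei and below the 22.2 of D2 nuclei. A list of 10 D1-enriched genes stood at 15.4, near the 15.8 of D1 nuclei and above the 3.71 of D2 nuclei. On both lists the undecided nuclei stood nearer to D1 than to D2 nuclei. Both lists were chosen with earlier results of these data known.

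All other nuclei of the same library were then compared with D2 nuclei, in sums of UFIs per library tested with edgeR (quasi-likelihood test, library as a block, Benjamini-Hochberg adjusted p at most 0.05). Of 12210 genes, 2302 were higher (18.9%) and 2738 lower (22.4%) in D2 nuclei. Levels are given as CPM, the UFIs of a gene scaled to all UFIs of that class in that library. Gpr6, an orphan receptor coupled to stimulatory G proteins, led: its level in D2 nuclei was 23.0 to 38.2 CPM with a median of 29.3, against 0.121 to 0.844 in all other nuclei (log2 fold change 6.32 ± 0.27 SE, adjusted p = 9.52e-11). The ranges did not come near each other. Sh3rf2 was 3.91 higher on the log2 scale and Ppp1r1b, which encodes the dopamine-regulated phosphatase inhibitor DARPP-32, 3.59 higher. Serpina9 (3.86) and 3 RNAs with little annotation, Gm44529 (4.80), 1700057H15Rik (4.38) and Gm8239 (3.76), were also among the 8 most raised genes that were higher in all 7 libraries.

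Of the 26 medium spiny neuron genes, 25 were higher in D2 nuclei, with a median log2 fold change of 2.73 against -0.02 over all genes tested. Adcy5, the main adenylyl cyclase of striatal neurons, was 3.24 higher on the log2 scale, the G protein subunits Gng7 and Gnal 3.34 and 2.55 higher, and the phosphodiesterases Pde1b and Pde10a 2.85 and 2.28 higher. The transcription factors Meis2 (2.61), Foxp1 (2.52) and Bcl11b (2.24) were also higher, and Arpp21 was lower by 0.36 on the log2 scale. Signalling families split by member. Of 8 adenylyl cyclases, Adcy5 and Adcy3 (0.63) were higher and 5 were lower, among them Adcy2 (-3.29), Adcy6 (-3.26) and Adcy8 (-2.95). Of 12 phosphodiesterases tested, 7 were higher and 5 lower, with Pde3a at -2.81 and Pde1a at -2.16. Of 27 G protein-coupled receptors, 21 were higher and 5 lower; Cnr1, the cannabinoid receptor, was 1.69 higher on the log2 scale and Grm2, a metabotropic glutamate receptor, 3.28 lower.

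Markers of other neurons were lower in D2 nuclei: all 5 cortical excitatory genes (Slc17a7 at -2.62) and all 6 interneuron genes tested (Sst -4.12, Npy -3.76). Of the 4 subcortical excitatory genes 3 were lower (Slc17a6 -3.25) and Synpo2 was higher by 1.09 on the log2 scale. Gli3 of the astrocyte list was 3.18 higher, while the other 3 astrocyte genes tested did not pass (Slc1a3 0.02 ± 0.36 SE). Gli3 was also 0.60 higher in D2 than in D1 nuclei, a call that passed in 14 of 16 alternatives and was lost with Drd2 and Adora2a against Drd1 and Eya1 as the rule and with no library block. Most of the 8 genes named as lowest in D2 nuclei had very unequal levels among the other nuclei: Gpx3 ran from 1.40 to 140.5 CPM there and Dab2 from 4.37 to 248 CPM, while D2 nuclei stayed at or below 2.22 and 5.44 CPM, so the ranges overlapped at their low ends. The kidney list stood at 7.00 and 6.16 UFIs per 10000 in the other nuclei of the frozen preindexed replicates and at 0.112 or less in those of the other 5 libraries; its part in these values was not tested. Trabd2b (-5.74), Gm44810 (-5.36), Pter (-5.30), Ndrg1 (-4.69), 4921539H07Rik (-4.65) and Prlr (-4.56) were the others. Pter passed in 10 of the 11 alternatives in which it was tested and lost the call with no library block. Over 15 alternatives the log2 fold change ran from -5.93 to -2.84 for Ndrg1 and from -6.07 to -3.47 for Dab2. For Gm44810 it ran from -6.22 to -3.79 over 14.

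D2 and D1 nuclei of the same library were compared next, over 6906 genes. In D2 nuclei 159 genes were higher (2.3%) and 193 lower (2.79%). The median log2 fold change over all genes was 0.00 after scaling, and 1005 genes had an unadjusted p under 0.05. Gpr6 led again, at 23.0 to 38.2 CPM in D2 nuclei against a median of 0 and a highest value of 13.1 in D1 nuclei, where 4 libraries had no UFI (log2 fold change 4.58 ± 0.47 SE, adjusted p = 3.14e-06). It rested on 218 UFIs in D2 and 7 in D1 nuclei. Oprd1, the delta opioid receptor, whose ligand enkephalin is made from Penk, was at 60.6 to 93.6 CPM (median 78.5) in D2 and 0 to 6.67 CPM (median 3.70) in D1 nuclei, a log2 fold change of 4.43 ± 0.25 SE (adjusted p = 1.83e-09). Grik3, a kainate receptor subunit, was at 733.5 to 921 CPM (median 787.5) in D2 and 13.1 to 94.0 CPM (median 44.0) in D1 nuclei (4.09 ± 0.19 SE, adjusted p = 1.33e-10). The D2 and D1 ranges of these 3 genes did not overlap.

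**Figure D3:**
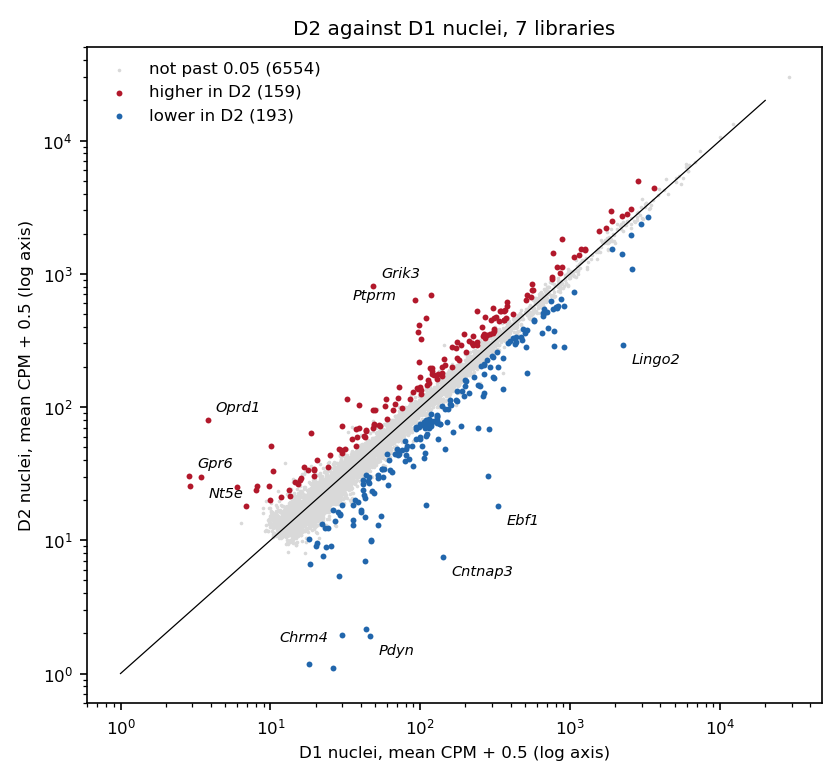
Mean CPM over the 7 libraries of 6906 genes in D1 nuclei (horizontal) and D2 nuclei (vertical), both plus 0.5 and on log axes, with the line of equality. The 159 genes higher in D2 nuclei (red) and the 193 lower ones (blue) lie on either side of the line, with Grik3, Oprd1 and Gpr6 farthest above it at their level.

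The windows around the starts of these 3 genes are shown because they lead the D2 list, and that of Drd2 as a gene of the rule. All can be compared base by base. They run from 250 bases before to 50 bases after the RefSeq start in build GRCm38.p6 (300 bases, 5′ to 3′ on the gene's strand), and capitals mark the GC box GGGCGG, read on either strand, and the cyclic AMP response element TGACGTCA. Penk and Adora2a have no entry in the table used.
Drd2, chr9:49340153-49340452, plus strand: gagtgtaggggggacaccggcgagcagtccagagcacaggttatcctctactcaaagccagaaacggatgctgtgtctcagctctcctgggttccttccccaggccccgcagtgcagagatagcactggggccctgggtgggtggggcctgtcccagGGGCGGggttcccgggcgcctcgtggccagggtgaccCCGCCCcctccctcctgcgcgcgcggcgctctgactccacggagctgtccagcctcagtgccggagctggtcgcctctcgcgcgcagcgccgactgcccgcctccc
Gpr6, chr10:41072241-41072540, minus strand: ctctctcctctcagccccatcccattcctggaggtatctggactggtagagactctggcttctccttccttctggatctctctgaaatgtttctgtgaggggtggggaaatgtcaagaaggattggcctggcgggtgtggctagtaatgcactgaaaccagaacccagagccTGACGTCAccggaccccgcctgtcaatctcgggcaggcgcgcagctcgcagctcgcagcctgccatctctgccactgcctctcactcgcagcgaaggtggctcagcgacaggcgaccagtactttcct
Oprd1, chr4:132144437-132144736, minus strand: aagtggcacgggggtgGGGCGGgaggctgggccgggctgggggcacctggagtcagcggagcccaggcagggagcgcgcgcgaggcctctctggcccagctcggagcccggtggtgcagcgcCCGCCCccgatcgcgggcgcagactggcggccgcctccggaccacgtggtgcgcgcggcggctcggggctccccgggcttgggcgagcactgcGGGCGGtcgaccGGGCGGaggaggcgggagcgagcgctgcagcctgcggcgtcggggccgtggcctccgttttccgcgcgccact
Grik3, chr4:125490446-125490745, plus strand: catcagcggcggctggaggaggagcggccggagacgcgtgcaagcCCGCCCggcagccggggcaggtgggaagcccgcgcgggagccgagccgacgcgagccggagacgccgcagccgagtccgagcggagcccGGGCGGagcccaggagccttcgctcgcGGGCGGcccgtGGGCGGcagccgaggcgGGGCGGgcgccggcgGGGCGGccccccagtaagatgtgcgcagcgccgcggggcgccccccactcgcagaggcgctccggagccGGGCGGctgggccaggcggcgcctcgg

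The Grik3 window held 7 GC boxes, the Oprd1 window 4 and the Drd2 window 2, while the Gpr6 window held none and 1 full response element. Over all 32851 promoter windows of the table, 35.7% held a GC box and 1.79% the response element. Of windows of genes tested in D2 against D1 nuclei the shares were 63.7% and 3.14%. Windows of genes higher in D2 nuclei held them in 50.3% and 1.68%, and windows of genes lower in D2 nuclei in 59.7% and 1.99%. These matches describe letters in a window only.

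Further genes higher in D2 than in D1 nuclei include both a maker and a remover of adenosine, the ligand of the receptor Adora2a. Nt5e, the ectonucleotidase CD73 that releases adenosine outside the cell, was at 19.1 to 33.4 CPM in D2 and 0 to 6.10 CPM in D1 nuclei (log2 fold change 3.19 ± 0.34 SE). Adk, adenosine kinase, was at 237 to 564 against 67.9 to 124 CPM (1.95 ± 0.11 SE). Both were higher in D2 nuclei in 7 of 7 libraries without overlap. Ptprm, a receptor tyrosine phosphatase, rose by 2.82 on the log2 scale, Plxdc1 by 2.81 and the netrin receptor Unc5d by 2.57. Nell1 rose by 2.25, the muscarinic receptor Chrm3 by 2.12 and the lipid phosphatase Fig4 by 1.83. Each passed in all 16 alternatives, but the size varied. It ran from 2.32 to 4.16 for Ptprm, 2.19 to 4.18 for Plxdc1 and 1.93 to 3.39 for Unc5d. For Nell1 it ran from 1.81 to 2.75, for Chrm3 from 1.96 to 2.93 and for Fig4 from 1.73 to 1.93. A830012C17Rik was 3.05 higher, but its annotated gene (chromosome 4, 4138321 to 4188703, plus strand) overlaps Penk (4133531 to 4138819, minus strand), a gene of the rule; the study describes its UFIs as strand-specific, but the strand setting of the counting step is not given in the sources used here, so whether reads of Penk enter its count was not tested.

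The genes lowest in D2 nuclei include the precursor of the opioid peptide dynorphin. Pdyn was at 0 to 2.94 CPM (median 1.35) in D2 and 29.9 to 61.3 CPM (median 49.1) in D1 nuclei, a log2 fold change of -4.89 ± 0.29 SE (adjusted p = 2.96e-09). Chrm4, the muscarinic receptor M4 of direct-pathway neurons, was at 0 to 2.75 against 27.1 to 33.5 CPM (-4.23 ± 0.30 SE). Ebf1, a transcription factor of the D1 lineage, was at 6.76 to 31.2 against 264 to 389 CPM (-4.41 ± 0.17 SE). The ranges of all 3 were apart. Slc35d3 (-4.88), Impg1 (-4.41), Cntnap3 (-4.26), Sntg2 (-3.38), Lingo2 (-3.21), the GDNF receptor Gfra1 (-2.68), the ion channel Asic4 (-2.66), the orphan receptor Gpr139 (-2.50) and the chloride channel Cftr (-2.48) were the other lowest genes on the log2 scale. Lingo2 is not a gene of D1 nuclei alone: its median was 187 CPM in D2, 2153 in D1 and 2446 in all other nuclei, so D2 nuclei stood apart from both.

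**Figure D4:**
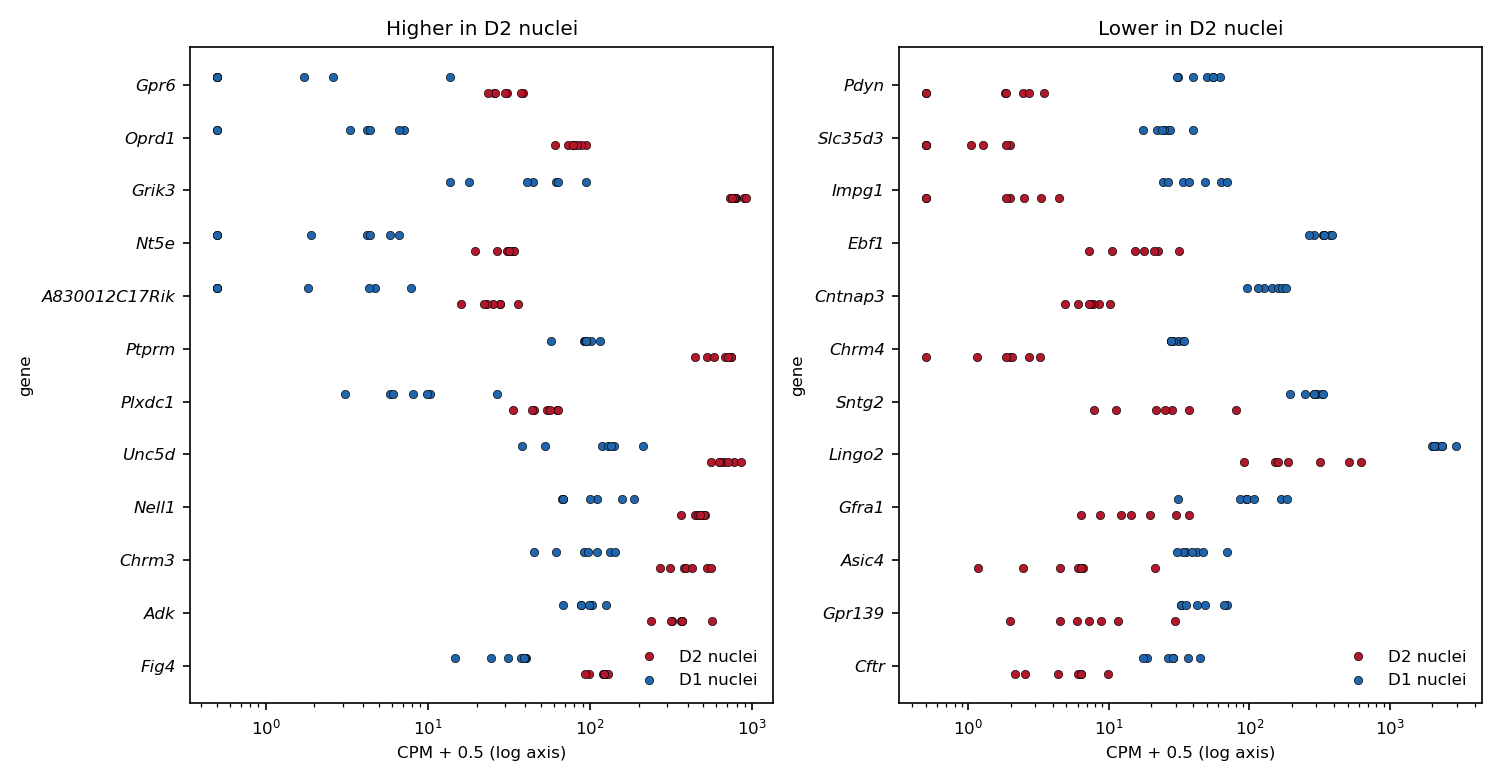
CPM plus 0.5 (horizontal, log axis) of the 12 genes most raised and the 12 most lowered in D2 nuclei, with a red point for D2 and a blue point for D1 nuclei of each of the 7 libraries. Points at 0.5 are libraries with no UFI; Gpr6 had none in D1 nuclei of 4 libraries.

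The lists of genes known as D2-enriched or D1-enriched moved as named, which is not independent support, since the lists were chosen with results of these data known. All 8 D2-enriched genes tested were higher, with a median log2 fold change of 2.82 against 0.00 over all genes; besides those above they were the guanylyl cyclase subunit Gucy1a3 (1.28) and the transcription factor Six3 (0.85; lost by DESeq2 and without fresh non-preindexed replicate 1). All 8 D1-enriched genes tested were lower, with a median of -3.09, among them Foxp2 (-1.68), Drd3 (-1.34), Sfxn1 (-1.30) and Zfp521 (-1.95). Foxp2 and Drd3, though lower than in D1 nuclei, were higher in D2 nuclei than in all other nuclei by 0.72 and 1.58 on the log2 scale. The 25 medium spiny neuron genes tested had a median of 0.08. Of these, 6 were higher in D2 nuclei, among them Gad1, which makes GABA (0.53), Rasgrp2 (0.44), Foxp1 (0.36), Gng7 (0.35) and Meis2 (0.30), and Strip2 was lower (-0.61). Rasgrp2 passed in 7 of 16 alternatives and Meis2 in 9 (in 3 and 2 of the 7 that leave out a library), while Gad1, Foxp1, Gng7 and Strip2 passed in all 16.

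Counts in the lists that follow stand beside 2.3% higher and 2.79% lower over all 6906 genes. Among 26 G protein-coupled receptors tested, 5 were higher and 3 lower in D2 nuclei. Beside Gpr6, Oprd1 and Chrm3, the serotonin receptor Htr2c was higher, at 226 to 375 against 127 to 261 CPM (0.87 ± 0.11 SE); beside Chrm4 and Drd3, the glutamate receptor Grm8 was lower (-0.89; not by DESeq2). The muscarinic receptors Chrm3 and Chrm4 thus went opposite ways. The cyclic AMP phosphodiesterases Pde4b (1481 to 2174 against 506 to 1078 CPM, 1.11 ± 0.08 SE) and Pde4d (0.91) were higher and Pde1a (-0.68) lower, of 10 tested. Of 6 adenylyl cyclases Adcy1 was higher (0.49) and Adcy2 lower (-1.30), and Adcy5 did not differ by the test. Of 17 G protein and RGS genes, Gng7, Gnb5 (0.35) and Gnao1 (0.32) were higher and Gnb4 (-1.44) and Gnai1 (-0.71) lower. Of 18 genes of protein kinase A and its effectors, Arpp19 (0.50) and Rasgrp2 were higher. Of 16 alternatives, Gnb5 passed in 5 (and in 1 of the 7 that leave out a library), Adcy1 in 10, Arpp19 in 11, Pde1a in 12 and Gnai1 in 13, while Gng7, Gnao1 and Gnb4 passed in all 16. Medians of these 5 lists lay between -0.03 and 0.15, near that of all genes.

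Ion channel and guidance genes were counted in the same way, beside the 2.3% higher and 2.79% lower over all 6906 genes. These lists too were chosen with earlier results of these data known. Of 15 ionotropic glutamate receptor genes, Grik3 was higher while Grik2 (-0.37) and Grik4 (-0.49), subunits of the same kainate receptors, were lower. Of 11 GABA-A receptor genes, Gabra3 was higher (0.64). Of 30 potassium channel genes, Kcnk2 (0.67), Kcnd3 (0.64), Kcnh7 (0.38) and Kcnn2 (0.30) were higher and Kcnb2 (-0.81), Kcnh1 (-0.34) and Kcnq5 (-0.28) lower. Of 24 guidance genes, Unc5d, Unc5c (1.19), Slit2 (0.72) and Sema3e (0.52) were higher and Nrp2 (-0.84), Epha8 (-0.72) and Sema5b (-0.46, turning to 0.26 without the nuclei high in markers of other cells) lower. Kcnh7 and Kcnn2 passed in 8 of 16 alternatives each (and in 2 of the 7 that leave out a library), Gabra3 and Slit2 in 11, Grik4, Kcnq5, Nrp2 and Epha8 in 12, Kcnh1 in 13 and Grik2 in 15, while Kcnk2, Kcnd3, Kcnb2, Unc5c and Sema3e passed in all 16. The netrin receptors Unc5d and Unc5c are named because they passed, so they say nothing of the Unc5 family as a whole.

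Of 6 striosome genes tested, Bach2 was higher (0.63) and Tshz1 (-0.80), Lypd1 (-0.63) and Sema5b lower. The last 3 did not pass without the nuclei high in markers of other cells. With no library block Bach2, Lypd1 and Sema5b did not pass. Bach2 passed in 15 of 16 alternatives. None of 4 matrix genes and none of 3 dorsal genes passed. Otof (24.6 to 68.3 against 61.6 to 115 CPM, -1.12 ± 0.17 SE) and Casz1 (-1.29), genes known from the small eccentric class of medium spiny neurons, were lower in D2 nuclei. Otof lost the call with Drd2 and Adora2a against Drd1 and Eya1 as the rule (1 of 16 alternatives), and Casz1 without frozen non-preindexed replicate 2 or without fresh non-preindexed replicate 1 (2 of the 11 in which it was tested). Adarb2, also in the interneuron list, was lower by 1.81 on the log2 scale (36.1 to 281 against 276 to 928 CPM). No immediate early gene and no nuclear noncoding RNA listed passed, of 3 and 6 tested.

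Detection was compared in nuclei thinned to 5000 UFIs. Grik3 had a UFI in 92.4% of 541 D2 nuclei (89.9 to 94.5) and 9.12% of 340 D1 nuclei (6.28 to 12.7; exact 95% intervals, counting error only; median depth before thinning 11676 and 15062 UFIs). Nuclei high in oligodendrocyte, cortical excitatory or kidney genes (over 10 UFIs per 10000 on the list; 355, 712 and 469 nuclei with median depths of 12818, 12355.5 and 8771 UFIs) had one in 42.5%, 53.9% and 1.07%. Grik3 thus marked D2 against D1 nuclei but not against all of the brain. Ptprm had a UFI in 83.5% of D2 nuclei and 16.2% of D1 nuclei, and in 49.9%, 20.6% and 50.5% of those 3 sets. Adk had one in 65.2% of D2 nuclei and 32.9% of D1 nuclei, and in 52.4%, 53.8% and 96.2% of the same 3 sets, so it was not particular to D2 nuclei. Gpr6 was seen in 12.2% of D2 nuclei (9.56 to 15.3) and 0.294% of D1 nuclei (0.00745 to 1.63), and in 0 nuclei of the 3 sets. The exact interval allows shares of nuclei with a UFI of up to 1.03%, 0.517% and 0.783% there, which limits detection at this depth and not the share of nuclei that carry the transcript. At the same depth D2 nuclei had slightly fewer genes than D1 nuclei, with library medians of 1976 ± 72.1 against 1997 ± 63.3 (SD, n = 7), lower in 6 of 7 libraries by 21.1 ± 20.1 genes on average (two-sided exact sign-flip permutation test, p = 0.0312, smallest possible 0.0156). Frozen non-preindexed replicate 1 was the library that went the other way, by 2.5 genes. Leaving it out gave p = 0.0312 by the exact permutation test. Leaving out any of the other 6 gave p = 0.0625 by the exact permutation test (mean differences of -23.6 to -15.4 genes). While that replicate is kept, 0.0625 is the smallest p that 6 libraries can give, so this loss of the call tells little of single libraries.

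D2 nuclei of frozen and fresh brain were compared over 9969 genes with the primer as a term. In frozen brain 10 genes were higher (0.1%) and 6 lower (0.0602%). Mitochondrial transcripts, which a nucleus should not hold, were the main group: all 8 mitochondrial genes tested were higher (median log2 fold change 1.19 against 0.00 over all genes), a list chosen after its values were seen. Some markers of other cells had positive log2 fold changes there too: 5 of 5 astrocyte genes (median 1.02), 3 of 3 granule cell genes (1.59), 2 of 2 endothelial genes (2.29) and 3 of 3 cortical excitatory genes (0.15). Other lists went the opposite way, with 1 of 5 oligodendrocyte genes positive (median -0.21), 1 of 3 microglia genes (-0.28) and 0 of 3 subcortical excitatory genes (-0.52). The 2 genes of oligodendrocyte precursors, 1 interneuron gene and 1 kidney gene tested were negative. None of these genes passed the test, and their part in the mitochondrial values was not tested. For mt-Nd4 the D2 values were 259 and 183 CPM in the frozen non-preindexed and 116 and 97.1 in the frozen preindexed replicates, against 64.7 and 64.5 in the fresh non-preindexed replicates and 62.9 in the fresh preindexed library (1.31 ± 0.20 SE, adjusted p = 0.0134). Every frozen value lay above every fresh one. Together the 8 genes gave 143, 106, 67.9 and 60.0 UFIs per 10000 in the frozen and 32.6, 39.4 and 49.2 in the fresh libraries. The other nuclei of the same libraries stood at 120, 105, 76.5 and 76.6 in frozen and 38.1, 36.1 and 56.5 in fresh brain, and for none of the 8 genes did the D2 to D1 difference itself differ with storage by the interaction test. Without the nuclei high in markers of other cells no gene was higher in frozen brain by the test, so none of the 8 kept its call. Over 15 alternatives, that one included, mt-Nd4 stayed between 1.10 and 1.79 and passed in 11, and mt-Co1 stayed between 1.06 and 2.01 and passed in 6.

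The other genes named by the rule for storage were few. Snx4, a sorting nexin, was at 27.5, 21.5, 24.6 and 31.6 CPM in frozen and 44.1, 57.5 and 94.0 CPM in fresh D2 nuclei (-1.52 ± 0.21 SE, adjusted p = 0.00673), and lost the call without the fresh preindexed library. Etv5, a transcription factor (-1.01), and Gm42826 (-1.04) were also lower in frozen brain, but of 15 alternatives Etv5 passed in 7 (in 3 of the 7 that leave out a library) and Gm42826 in 11 (in 4 of those 7). Egfr was 3.79 higher, but 39 of its 44 UFIs in frozen non-preindexed replicate 2 came from 1 nucleus, and it did not pass without that library. None of 8 immediate early genes tested passed, with a median of -0.81 in frozen against fresh brain. Without the nuclei high in markers of other cells 3 genes passed in place of 16, and with Drd2 and Adora2a against Drd1 and Eya1 as the rule 2 passed.

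More genes differed between D2 nuclei of preindexed and non-preindexed libraries, which differed in granule cell genes as well: with preindex 174 were higher (1.75%) and 146 lower (1.46%) of 9969, with storage as a term. DESeq2 split otherwise, at 219 higher and 18 lower, with no adjusted p for 9084 genes. The largest falls were genes of cerebellar granule cells. Fat2 was at 66.1 and 83.9 CPM in frozen and 35.3 and 16.3 in fresh D2 nuclei without preindex, and at 0.665, 0 and 0.676 with it (-6.65 ± 0.56 SE, adjusted p = 9.76e-06). Cbln3 had 53 UFIs in D2 nuclei without preindex and 0 with it, at least 29.7-fold lower when 3 UFIs over the group are taken as the floor. Il16 (-5.28), Gm2694 (-2.90) and Slc17a7 (-2.74), the last counted here in the cortical excitatory list, were lower too. Each passed in 13 of 14 alternatives and not without the nuclei high in other markers or with granule UFIs. From which cells their UFIs came was not tested. Also lower were 4 of 5 astrocyte genes (Gfap -4.70, Aqp4 -3.70, Gja1 -3.06, Slc1a3 -2.47). The 3 granule genes summed to 1.13, 1.37, 0.559 and 0.295 UFIs per 10000 in D2 nuclei of the 4 non-preindexed libraries and to 1.27, 1.40, 0.533 and 0.667 in the other nuclei there, and to 0.00979 or less in both with preindex. They were seen in 41 D2 nuclei in all, 3 of which exceeded 10 UFIs per 10000. Their part in the other changes was not tested; without the nuclei high in other markers 106 genes passed in place of 320, and without those with granule UFIs as well 48 passed.

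**Figure D5:**
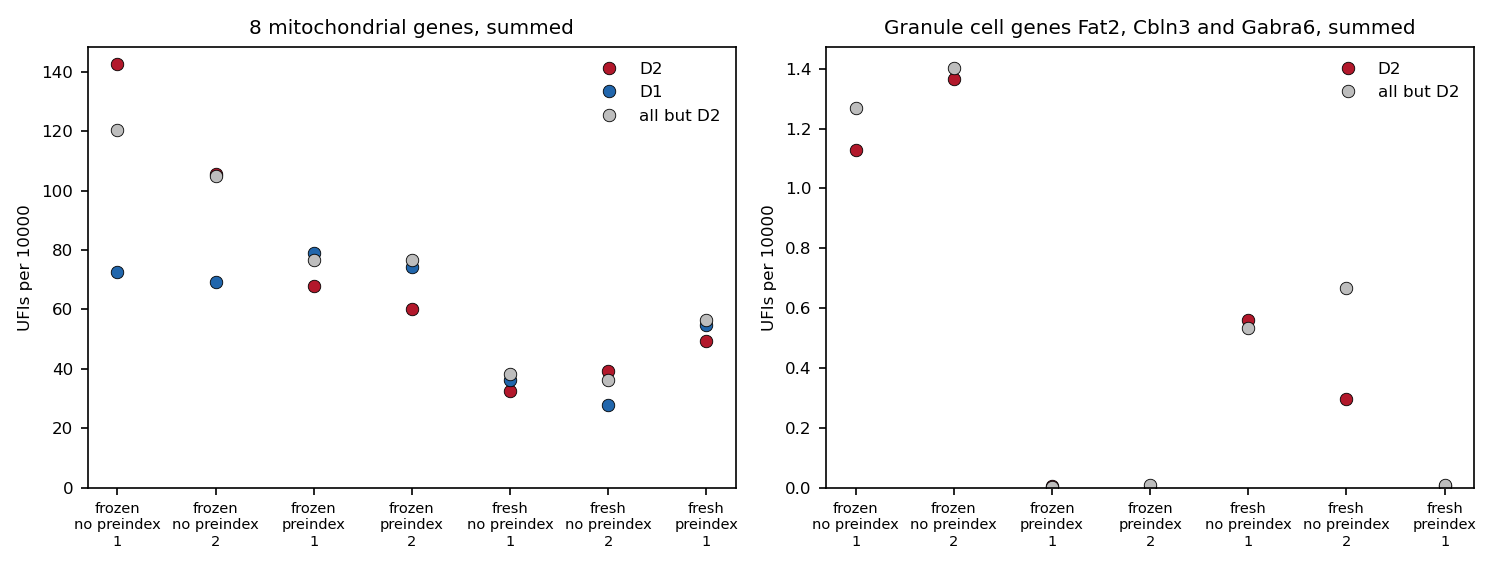
Left, UFIs per 10000 on 8 mitochondrial genes in D2, D1 and all other nuclei of each of the 7 libraries; in D2 nuclei the 4 frozen libraries (60.0 to 143) lie above the 3 fresh ones (32.6 to 49.2). Right, the summed level of the granule cell genes Fat2, Cbln3 and Gabra6 in D2 nuclei and in all other nuclei, which is near 0 in the 3 preindexed libraries for both.

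Among genes higher with preindex in D2 nuclei with a mean of at least 20 CPM and no overlap between groups, the 5 with the largest log2 fold change were Gm26002 (2.80), Gm22753 (2.05) and Gm24265 (1.52), annotated as small nuclear RNA genes, Sfmbt2 (1.22) and RP23-191M12.2 (1.12). Of 14 alternatives, Gm26002 and Gm24265 passed in all, Gm22753 in 12 (not without frozen non-preindexed replicate 1 or 2), Sfmbt2 in 11 (not without the fresh preindexed library) and RP23-191M12.2 in 6 (in 1 of the 7 that leave out a library). Gm26002 was at 59.8 and 43.3 CPM in the frozen but 8.12 in the fresh preindexed library, against 5.51, 0, 1.47 and 5.44 CPM without preindex. The abundant small RNA Rn7sk was lower with preindex, at 358, 300.3 and 381 CPM against 939, 800, 780 and 827 (-1.12 ± 0.12 SE), without overlap. Malat1 was higher by 0.33 on the log2 scale. Among neuronal genes, Pde10a (0.40), Meis2 (0.47), Rarb (0.43) and Ano3 (0.46) of the 26 medium spiny neuron genes were higher and none lower, and the list's median was 0.16 against -0.03 over all genes. The activity-regulated genes Homer1 (0.75) and Nr4a3 (2.01) were higher, of 8 tested.

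Whether the D2 to D1 difference itself changed was tested by the interaction of class with storage and with primer, over 6906 genes. With storage no gene passed by edgeR (0%), none by DESeq2, and 308 had an unadjusted p under 0.05. With primer 15 passed (0.217%), all with a lower D2 to D1 ratio in preindexed libraries. They include Slc1a3 (-4.49) and Slc1a2 (-3.14), glutamate transporters of astrocytes, and Gli2 (-6.67), Plpp3 (-4.17) and Gpc5 (-3.15) on the log2 scale. With the nuclei high in markers of other cells left out, 1 of the 15 passed. Without the fresh preindexed library none of the 15 passed.

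Variation among D2 nuclei was measured in 541 nuclei thinned to 5000 UFIs, as the variance over the mean of UFIs averaged over libraries; sampling alone would give about 1. Over 3469 genes the median was 1.17, and 90% of genes lay below 2.06. The most variable were Gm42418, an RNA from the ribosomal RNA repeat (42.6), the mitochondrial ribosomal RNAs mt-Rnr1 (24.3) and mt-Rnr2 (15.6), Adarb2 (19.4), Gpc5 (14.4), Erbb4 (12.9), Nrg3 (11.2), Lars2 (11.1), Gm28928 (10.9) and the abundant striatal gene Phactr1 (10.7). For 3 of the 10 a single library moved the mean by over 1.5 times: mt-Rnr1 ran from 6.48 to 87.6 over libraries and mt-Rnr2 from 4.07 to 58.3, with means of 13.8 and 8.50 without frozen non-preindexed replicate 1, and Adarb2 ran from 2.79 to 70.8, with a mean of 10.9 without the fresh preindexed library. Within libraries, mt-Rnr1 went with mt-Rnr2 across nuclei (Pearson r = 0.77 of log counts), Gm42418 with mt-Rnr1 (0.63) and with Lars2 (0.59), and Adarb2 with Erbb4 (0.35), where all points share libraries and depth.

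Adarb2 marked a few members out. It was seen in 58 of the 541 thinned D2 nuclei but reached 94 UFIs in 1 of them. The 12 D2 nuclei with at least 10 Adarb2 UFIs per 10000 came from all 7 libraries. They held Drd2 at 4.90 against 12.6 UFIs per 10000 in the other 532, Rgs9 at 7.31 against 13.6 and the medium spiny neuron genes at 104 against 202, with Erbb4 at 26.2 against 2.17 and Otof at 1.23 against 0.343. The D2-enriched list stood at 25.4 against 22.1 (Ptprm 11.2 against 6.15, Grik3 6.40 against 8.09) and the D1-enriched list at 7.40 against 3.604. These 12 nuclei were chosen on Adarb2 after its values were seen, and the difference was not tested.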

How the data were processed

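UFI counts per gene and nucleus of the 7 brain libraries were used as the authors deposited them: whole-number counts, not normalised. For tissue samples the study's methods describe trimming with cutadapt, alignment with STAR, assignment of uniquely mapped reads to whole genes with featureCounts, UFI counting with UMI-tools and cutoffs on UFIs and genes per cell against poor cells and doublets; the submitters' notes name the same tools, and their settings for these libraries are not given in the sources used here. The notes name the builds GRCh38, GRCm38 and mm10, and the study's methods name GRCh38 for tissue samples. Which build served these mouse brain libraries stayed unclear from the sources used here, so genes were matched by symbol (34496 symbols). Library totals ran from 8605214 to 42439731 UFIs. Coordinates are from GENCODE M21 on GRCm38.

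UFIs were summed per library and class, and CPM are relative to that sum. Sums were scaled by TMM, filtered with filterByExpr and tested by glmQLFTest in edgeR 4.0.16 (R 4.3.3), with library as a block between classes and storage and primer as terms within D2 nuclei. The SE is the log2 fold change over the root of F. The 7 genes of the rule were left out of tests between classes. The D2 to D1 comparison and that with all other nuclei share the D2 nuclei. DESeq2 1.42.0 was an alternative. Scripts were tested on simulated data.

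Named genes are, per comparison of classes, the 12 highest and lowest (8 against all other nuclei) past an adjusted p of 0.05 with at least 20 CPM on average in the higher class and the same direction in all 7 libraries; for storage and primer, up to 5 each way without overlap; the list members; and the 10 most variable genes with a mean of at least 0.2 UFIs. Gpr52, Pde2a and Peg13 were not analysed here, and Gucy1a1 was matched as Gucy1a3. The members and lists were chosen with earlier results of these data known. Nuclei high in markers of other cells are those over 10 UFIs per 10000 on 7 lists (cortical and interneuron, astrocyte, oligodendrocyte and precursor, microglia and endothelial). D2 and D1 nuclei are paired by library. Replicate numbers of the groups were not used as pairs in the main fits. A few genes are not reported here.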

Additional observations from a re-analysis of the deposited data

Results flagged for a closer look

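For 15 genes the D2 to D1 difference itself differed between preindexed and non-preindexed libraries by the interaction test (edgeR, adjusted p at most 0.05, 6906 genes). For 14 of them the interaction, on the log2 scale, was -6.67 for Gli2, -4.49 for Slc1a3, -4.17 for Plpp3, -3.87 for Rorb, -3.15 for Gpc5, -3.14 for Slc1a2, -2.53 for Zfp521, -2.12 for Nfia, -2.08 for Stmn2, -2.08 for Luzp2, -1.98 for Maml2, -1.87 for Dock1, -1.47 for Lingo2 and -0.87 for Wwox. Slc1a3 stood at 74.4, 99.5, 23.5 and 71.5 CPM in D2 nuclei without preindex and at 34.6, 3.89 and 3.38 with it, while D1 nuclei stood at 4.38, 12.3, 46.7 and 13.7 without and at 58.8, 24.5 and 44.2 with it. Slc1a2 was seen in 243 of the 544 D2 nuclei, and 1 nucleus held 13.4% of its UFIs; within libraries the top nucleus held from 5.95% (frozen preindexed replicate 2) to 52.9% (frozen non-preindexed replicate 2). DESeq2 called 10 genes, all among the 15, and 1 of the 15 passed without the nuclei high in markers of other cells, and none passed without the fresh preindexed library. Across 14 sets of 4 libraries (frozen or non-preindexed) examined for a library far from the others, none was found.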

How the results depend on the processing

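The number of genes called between D2 and D1 nuclei was within 1.5 times of 352 under all alternatives but one added after seeing the data: with undecided nuclei counted as D1, 557 passed, 329 of them among the 352. Of the 73 genes named in that comparison, 46 passed under every alternative, and Sema5b turned to 0.26 without the nuclei high in markers of other cells and to 0.29 without those with granule UFIs as well (the second alternative also added after seeing the data). The calls within D2 nuclei were less stable. Between frozen and fresh brain the 16 calls became 69 with no filter on low counts, 7 with a ratio of 4, 2 with Drd2 and Adora2a against Drd1 and Eya1, 3 without the nuclei high in other markers and 5 without those with granule UFIs as well, and 8 to 17 with 1 library left out; none of the 8 genes named there passed throughout. For the primer the 320 calls became 675 with no filter, 106 and 48 without those nuclei, and 78 (without the fresh preindexed library) to 307 (without fresh non-preindexed replicate 1). The interaction with storage gave 16 calls with no filter in place of 0. The interaction with primer gave 87 with no filter, 3 with a ratio of 4 and 9 with the Drd2 and Adora2a rule. It gave 1 without the nuclei high in other markers, 0 without those with granule UFIs as well and 23 with undecided nuclei added. With no library block it gave 1, and with 1 library left out 0 to 23.

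The higher share of D2 nuclei with preindex reached p = 0.0286 (exact permutation test, the smallest it can give) in 4 alternatives: a difference of 1.91 points after thinning to 5000 UFIs, 1.85 with the Drd2 and Adora2a rule, 1.91 with an Rgs9 minimum of 8 and 1.82 with at least 6 UFIs. The log2 D2 to D1 ratio of frozen against fresh libraries turned to -0.0361 with a ratio of 4, -0.0562 with the Drd2 and Adora2a rule, -0.13 with at least 6 UFIs and -0.17 with undecided nuclei counted as D1 (added after seeing the data), and ran from -0.27 to 0.46 with 1 library left out. The difference in genes per nucleus was -29.9 (p = 0.0625, exact permutation test) at 8000 UFIs and -25.1 to -15.4 with 1 library left out. The causes were not tested.

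Same-numbered replicates of different groups did not deviate together (r = -0.01, -0.01 and -0.02 over 9969 genes). Several of these D2 sums rest on few nuclei, and counting noise can hide a shared deviation, so this cannot exclude a pairing. With a replicate block 15 genes passed for storage and 250 for the primer; without the library block between classes 245 passed between D2 and D1 nuclei and 5057 against all other nuclei. The 29 to 32 D2 nuclei of 3 non-preindexed libraries limit what can be seen in them.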
